A study of Mus musculus with 12 samples.

Results

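The 200 mRNAs whose signal varied least over the day in mouse liver were described here. They were chosen by their own measured values: a gene had to have a signal above 5 reads per base pair (rpbp) in all 12 samples, and the 200 genes with the lowest SD over mean of the 12 values were taken. Some genes stand in the file under more than 1 symbol. Each symbol was counted as a gene, so 1 symbol of a gene can be among the 200 and another not. Of 20069 genes in the file, 10198 exceeded 2 rpbp in at least 1 sample and are called expressed here, and 4561 exceeded 5 rpbp in all 12. The 200 steadiest mRNAs are 4.39% of these 4561 genes. Because the SD over mean made the choice, it is given below as a description and no test is attached to it.

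Poly(A) RNA was sequenced from livers of C57BL/6 mice, wild-type males aged 3 to 6 months. The mice had lived in 12 hr of light and 12 hr of darkness for at least 2 weeks. Livers were taken every 4 hr from ZT2 to ZT22 (hours after lights on) in 2 independent series, so that each of the 6 time points has n = 2. The labels do not say how many animals went into a sample.

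Most genes that every cell needs, such as those for translation, splicing, protein transport and protein breakdown, are called housekeeping genes, and their mRNAs are often long-lived. A reference gene is an mRNA that is taken as constant so that others can be measured against it, as in quantitative PCR. *Actb* (cytoplasmic actin), *Gapdh* (a glycolytic enzyme), *Hprt1* (purine salvage, the *Hprt* of other lists), *Tbp* (the TATA-binding protein) and *Ppia* (cyclophilin A, a prolyl isomerase) are in common use. In liver, feeding, fasting and the circadian clock move many metabolic mRNAs every day, so that a constant mRNA cannot be assumed.

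The sum of the signal over all genes lay between 371867 and 386529 rpbp per sample. The deposited table holds no count of sequences. The study lists the mapped sequences of each library in its text, but these were not used here, and no interval for the counting error of a value was computed. The 8 hepatocyte markers had a summed signal of 23330 to 44024 rpbp per sample, and none was at 0. The summed markers of Kupffer cells (6 of 7 in the file) lay between 70.2 and 143.0 rpbp, those of endothelial cells between 41.5 and 50.1 rpbp, those of stellate cells between 46.6 and 60.5 rpbp and those of bile duct cells between 0.95 and 3.53 rpbp. The blood markers ranged from 16.9 to 151 rpbp. In a whole liver, fewer cells of a type and less RNA per cell cannot be told apart.

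The SD over mean of the 200 steadiest mRNAs ran from 3.00% to 5.94%, with a median of 5.26%. Over all 4561 genes the median was 12.1%. The highest of the 12 values of a steady mRNA was 1.1 to 1.28 times the lowest, and the median was 1.19, against 1.49 for all 4561 genes. Between the 2 samples of a time point, the SD was 4.48% of the mean in the median steady mRNA and 8.53% in the median gene. The mean signals of the 200 ran from 5.61 to 6568 rpbp, with a median of 20.6 rpbp against 15.99 rpbp, so that the steadiest mRNAs were spread over nearly the whole range of levels. When the 4561 genes were divided by mean signal into 4 groups of like size, 27 of the 200 fell in the lowest group, 45 and 66 in the next ones and 62 in the highest.

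**Figure D1:**
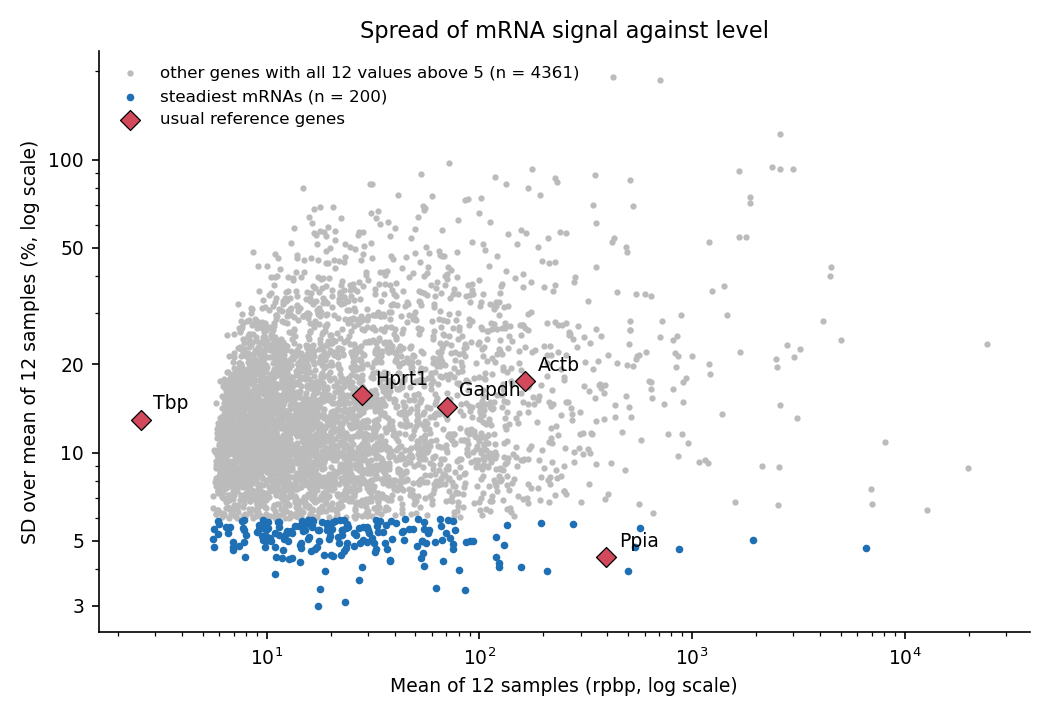
SD over mean of the 12 samples (%) against their mean signal (rpbp), both on log axes, for the 200 steadiest mRNAs (blue), the other genes with all 12 values above 5 rpbp (grey) and 5 usual reference genes (red diamonds). *Ppia* lies among the blue points at 4.41%, while *Gapdh*, *Hprt1* and *Actb* lie at 14.3% to 17.5%, and *Tbp* lies left of the minimum at 2.57 rpbp.

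The steadiest mRNA was *Rbm39*, which encodes a splicing factor of the spliceosome (mm9 chromosome 2, 155972975 to 156005974). Its lowest value was 16.7 rpbp, its median 17.5 rpbp and its highest 18.3 rpbp, and its SD over mean was 3.00% (mean 17.4 ± 0.523 rpbp, SD, n = 12). *Golph3*, a Golgi protein that binds a phosphoinositide (chromosome 15, 12251205 to 12281346), lay between 22.1 and 24.6 rpbp with a median of 23.5 rpbp (SD over mean 3.10%). *Tmem59*, a membrane protein (chromosome 4, 106851004 to 106873601), lay between 81.0 and 90.0 rpbp with a median of 84.5 rpbp (3.39%). Its lowest and highest values were the 2 samples of ZT22. The fourth was *Ogdh*, a subunit of the 2-oxoglutarate dehydrogenase of the TCA cycle (chromosome 11, 6191636 to 6256645), at 17.04 to 18.97 rpbp with a median of 17.7 rpbp (3.44%). The fifth was *Bcap31*, a membrane chaperone of the endoplasmic reticulum (chromosome X, 70931517 to 70961514), at 59.6 to 66.5 rpbp with a median of 62.3 rpbp (3.46%). Its 2 samples of a time point differed least of all 4561 genes, with an SD of 1.21% of the mean.

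The 100 bases before the start of 3 of these genes are shown to place them in the genome: the steadiest mRNA, the one steady mRNA among the 5 usual reference genes, and a steady mRNA that is made by hepatocytes. They come from RefSeq (GRCm38.p6), 5′ to 3′ on the strand of the gene, and capitals mark each CG. *Rbm39* has 2 such entries, and the one farther upstream is given.
Rbm39 (chr2:156180239-156180338, minus strand): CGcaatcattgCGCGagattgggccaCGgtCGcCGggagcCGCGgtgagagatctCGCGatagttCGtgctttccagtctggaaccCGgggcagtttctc
Ppia (chr11:6415767-6415866, plus strand): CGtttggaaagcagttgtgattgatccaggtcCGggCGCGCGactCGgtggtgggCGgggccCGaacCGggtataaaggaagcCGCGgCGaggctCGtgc
F2 (chr2:91636458-91636557, minus strand): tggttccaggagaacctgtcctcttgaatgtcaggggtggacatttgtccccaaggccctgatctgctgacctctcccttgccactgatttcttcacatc
The stretch of *Rbm39* holds 12 CG, that of *Ppia* 13 and that of *F2* 0. An entry was found for 159 of the 200 steadiest mRNAs (79.5%) and for 74.1% of the 4561 genes. This is under the 80% set for such a check, so no difference between the promoters of the steadiest mRNAs and those of other genes is reported, and the 3 stretches are shown as a description.

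The next 15 mRNAs in order had an SD over mean of 3.68% to 4.32%. They included *2610507B11Rik*, *Sf3b1*, *Lamp1*, *2900073G15Rik*, *F2*, *Ywhae*, *Uqcrh*, *Rpl23a*, *BC010304*, *Hnrpf*, *Tpi1* and *Serinc1*. *Sf3b1*, a core subunit of the U2 snRNP, lay between 10.3 and 11.8 rpbp (median 10.97). *Lamp1*, a main protein of the lysosomal membrane, lay between 193.8 and 220.7 rpbp (median 210.5). *F2*, the prothrombin that hepatocytes secrete, lay between 462 and 527 rpbp (median 501). *Tpi1*, the glycolytic triosephosphate isomerase, lay between 116.6 and 136.4 rpbp (median 124.3). Genes of nuclear, secretory, cytosolic and mitochondrial proteins thus stood side by side at the head of the list, with means from 11.01 rpbp for *Sf3b1* to 499.1 rpbp for *F2*.

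The steady mRNAs with the highest levels were *X57780* (mean 6568 rpbp, SD over mean 4.73%), *Gc* (1935 rpbp, 5.04%), *Azgp1* (869 rpbp, 4.69%), *Apoc4* (567 rpbp, 5.54%) and *Rdh7* (540.3 rpbp, 4.75%). *Gc* is the vitamin D-binding protein of plasma, *Apoc4* an apolipoprotein and *Rdh7* a retinol dehydrogenase. *X57780* is named in the file by an mRNA record, and no gene model was matched to it. The steady mRNAs with the lowest levels were *PP2A*, *2010003J03Rik*, *Map3k7*, *Snx27* and *Plod1*, with means of 5.61 to 5.92 rpbp and an SD over mean of 4.76% to 5.83%. The last mRNAs inside the threshold of rank 200 were *Higd2a* (5.92%), *Ddx3x* (5.94%) and *AK185681* (5.94%). The first ones outside were *Chmp1a* (5.96%), *Tlk1* (5.97%) and *Nfs1* (5.97%), so that no gap separated the 200 from the genes that follow them.

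To describe the functions that the steadiest mRNAs share, 51 lists of genes were used. These lists were written with earlier results of these data known, so the shares below are a description only. Of the 200, 91 (45.5%) belonged to at least 1 list, against 32.2% of the 4561 genes, and 34 of the 51 lists held at least 1 of them. The counts below are to be read beside the 4.39% of all 4561 genes that are among the 200. The lists are small, so that 1 gene more or less moves a share by much, and no test of a list was made. The counts also moved when 1 sample was left out, for example from 3 to between 1 and 5 for the proteasome. The lysosomal and the mitochondrial import lists moved from 4 to as few as 2. Transport between the endoplasmic reticulum and the Golgi ranged from 2 to 9, and the respiratory chain from 3 to 8.

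Genes of the translation machinery among the 200 included initiation factors and ribosomal proteins. Of 41 initiation factors with all 12 values above 5 rpbp, 7 (17.1%) were among the 200. *Eif4h*, which stimulates the helicase of initiation, had an SD over mean of 4.37%, *Eif5*, which acts in start codon selection, 4.93%, *Eif5a* 4.99% and *Eif3h* 5.09%. Among ribosomal proteins, 2 of 80 cytoplasmic ribosomal proteins (2.50%) were among the 200, *Rpl23a* (4.07%) and *Rpl19* (5.15%), and 1 of 59 mitochondrial ribosomal proteins. The median SD over mean was 9.97% for the initiation factors, 9.73% for the cytoplasmic and 10.6% for the mitochondrial ribosomal proteins. The difference in counts between the lists was not tested. No gene of the list of aminoacyl-tRNA synthetases (0 of 19) or of that of elongation and release factors (0 of 7) was among the 200. The latter list does not hold *Tufm*, a mitochondrial elongation factor, which was among them (4.93%). Ribosomal proteins and several reference genes have pseudogenes that are nearly the same in sequence, and reads with more than 1 possible place were dropped, so their levels are uncertain.

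Of the genes that process RNA, 3 of 41 spliceosome proteins were among the 200 (7.32%): *Rbm39* and *Sf3b1*, described above, and *Prpf19*, a ubiquitin ligase of the spliceosome (5.91%). SR and hnRNP proteins contributed 2 of 40, *Hnrpf* (4.11%) and *Matr3* (4.93%). None of 25 genes of RNA polymerase II and general transcription factors was included, none of 15 mRNA decay factors and none of 14 factors of cleavage, polyadenylation and export.

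Genes of protein transport and the lysosome were present in small numbers from many steps. From the list of transport between the endoplasmic reticulum and the Golgi, 4 of 53 were included (7.55%): *Ykt6*, a SNARE (4.49%), *Tmed4* (4.71%), the cargo receptor *Lman2* (5.57%) and *Trappc6b*, a subunit of a tethering complex (5.88%). Rab GTPases, which direct vesicles to their target membrane, and their regulators contributed 3 of 33 (9.09%), the late endosomal *Rab7* (4.92%), *Gdi2* (5.11%) and the early endosomal *Rab5c* (5.38%). The median SD over mean of the Rab list was 8.44%. The lysosomal list gave 4 of 28 (14.3%), the membrane proteins *Lamp1* (3.95%) and *Lamp2* (5.44%), the peptidase *Tpp1* (5.76%) and the cathepsin *Ctsh* (5.87%). The vacuolar ATPase (0 of 12), autophagy factors (0 of 16) and the list of other SNAREs and fusion factors, which does not hold *Ykt6*, (0 of 11) gave none, and their median SD over mean was 8.45%, 9.24% and 9.69%, against 10.9% for the transport list and 11.8% for the lysosomal list.

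Among genes of protein breakdown, deubiquitinases, which remove ubiquitin, gave 4 of 22 (18.2%): *Usp33* (4.66%), *Usp12* (4.95%), *Otub1* (5.07%) and *Usp19* (5.84%). Their median SD over mean was 8.08%. The proteasome gave 3 of 36 subunits (8.33%), *Psmd8* (5.26%), *Psmb1* (5.50%) and *Psmd13* (5.81%), and the ubiquitin ligases 4 of 73 (5.48%), *Ddb1* (4.92%), *Ube3b* (5.53%), *Huwe1* (5.66%) and *Fbxo9* (5.92%).

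Mitochondrial genes were represented by 5 of 74 genes of the respiratory chain and ATP synthase (6.76%). These were *Uqcrh* of complex III (4.07%), *Ndufb11* (4.41%) and *Ndufs8* (5.45%) of complex I, *Atp5l* of the ATP synthase (5.67%) and *Cox4i1* of complex IV (5.75%). Mitochondrial import and quality control gave 4 of 44 (9.09%), *Mfn1*, which fuses outer membranes (4.997%), *Tomm70a* (5.03%), *Timm23* (5.73%) and *Pmpca* (5.74%). The TCA cycle gave *Ogdh* alone among 23 genes, and the median SD over mean of that list was 16.4%.

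Several lists of signalling and of the cytoskeleton also held steady mRNAs. Of 6 14-3-3 proteins, adaptors that bind phosphorylated proteins, 3 were among the 200: *Ywhae* (3.99%), *Ywhaq* (5.45%) and *Ywhab* (5.85%). *Ywhaz*, a 14-3-3 gene in use as a reference, was not (9.60%). Heterotrimeric G proteins gave 3 of 11, *Gnai3* (4.95%), *Gng5* (4.95%) and *Gnas* (5.54%). The list of protein kinases gave 6 of 53 (11.3%), among them *Araf* (4.39%), *Csnk2a1* (4.995%) and *Csnk2b*, a regulatory subunit (5.33%). Phosphatases gave 3 of 35 (8.57%), *Ppp6c* (5.40%), *Ppp2r5c* (5.69%) and *Ptpn11* (5.81%), and small GTPases and their exchange factors 3 of 42 (7.14%), *Arfgef1*, an exchange factor of ARF proteins (4.35%), *Rac1* (5.04%) and *Rhoa* (5.48%). The list of actin and Arp2/3, which does not hold every actin-binding protein, gave 4 of 34 (11.8%), *Cfl1* (4.94%), *Actr2* (5.58%), *Actr1b* (5.65%) and *Arpc2* (5.90%), while the list of tubulin, dynein and kinesin gave 3 of 23, *Dynll2* (4.71%), *Dctn5* (5.04%) and *Pafah1b1* (5.50%).

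Lists of metabolism differed in their counts. None of 36 cytochrome P450 enzymes, 33 conjugating enzymes, 27 enzymes of beta-oxidation and 27 genes of cholesterol and fatty acid synthesis was among the 200. The median SD over mean of these lists was 22.4%, 26.4%, 16.9% and 31.6%. The list of apolipoproteins and plasma proteins gave 3 of 80 (3.75%), *F2*, *Gc* and *Apoc4*, with a median of 21.4%. That list does not hold every plasma protein. *Azgp1*, named above, and the complement protease *Masp2* (4.997%) are outside it and were also among the 200. Mitochondrial carriers gave 2 of 19 (10.5%), peroxins 1 of 12 (8.33%) and glycolysis and gluconeogenesis 1 of 16 (6.25%), with medians of 14.6%, 15.5% and 21.8%. The stellate cell marker *Dcn* was the single gene of the cell type markers among the 200.

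**Figure D2:**
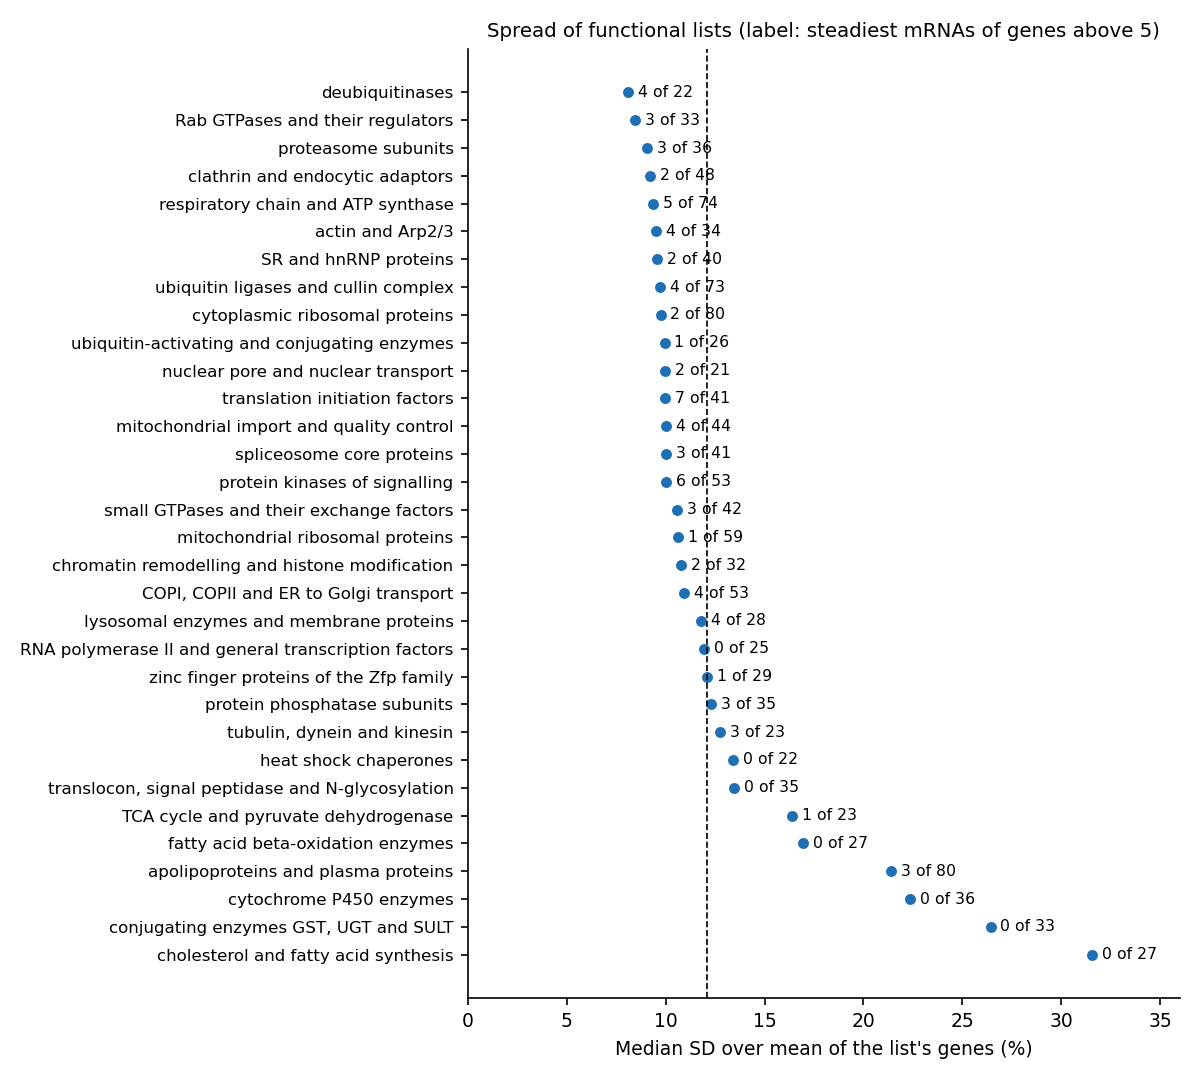
Median SD over mean (%) of the genes of each functional list with at least 20 genes above 5 rpbp in all 12 samples, with the number among the 200 steadiest mRNAs of the genes in the list written beside each point. The dashed line is the median of all 4561 genes, 12.1%; deubiquitinases lie lowest at 8.08% and cholesterol and fatty acid synthesis highest at 31.6%.

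The 5 usual reference genes were then ranked against the 200. *Ppia* was among them, at rank 26 of 4561. Its values lay between 372 and 415 rpbp with a median of 397 rpbp (mean 395 ± 17.4 rpbp, SD, n = 12; SD over mean 4.41%). It fell outside the 200 by the median absolute deviation over the median (rank 501) and in series 2 alone (rank 247). The other reference genes were not among the 200. *Gapdh* ranked 2839th, *Hprt1* 3121st and *Actb* 3404th, so that all 3 varied more than the median gene over the 12 samples. *Gapdh* lay between 57.1 and 93.7 rpbp with a median of 67.6 rpbp (SD over mean 14.3%). *Hprt1* lay between 22.7 and 38.6 rpbp with a median of 27.8 rpbp (15.7%). *Actb* lay between 125.9 and 217.5 rpbp with a median of 159.6 rpbp (17.5%).

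The spread of these genes had different forms. *Gapdh* and *Hprt1* were both highest in the ZT10 sample of series 2, at 93.7 and 38.6 rpbp, while the ZT10 sample of series 1 had 67.4 and 28.0 rpbp. Without the series 2 sample of ZT10 the SD over mean fell to 10.5% and 11.5%, and the ranks moved to 1772 and 2167, so that both then varied less than the median gene. In series 1 alone the SD over mean was 8.67% for *Gapdh* and 7.13% for *Hprt1*, and in series 2 it was 19.5% and 22.2%. *Actb* was instead highest at ZT2 in both series, at 203.3 and 217.5 rpbp, and lowest at ZT10 in series 1 (125.9 rpbp) and at ZT6 in series 2 (140.4 rpbp). Its SD over mean was 18.8% in series 1 and 16.8% in series 2. *Tbp* lay between 2.13 and 3.25 rpbp with a median of 2.55 rpbp and was therefore below the minimum. Its SD over mean of 12.96% was higher than that of 26.4% of the 1302 expressed genes within 1.2-fold of its mean, whose median was 16.7%.

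**Figure D3:**
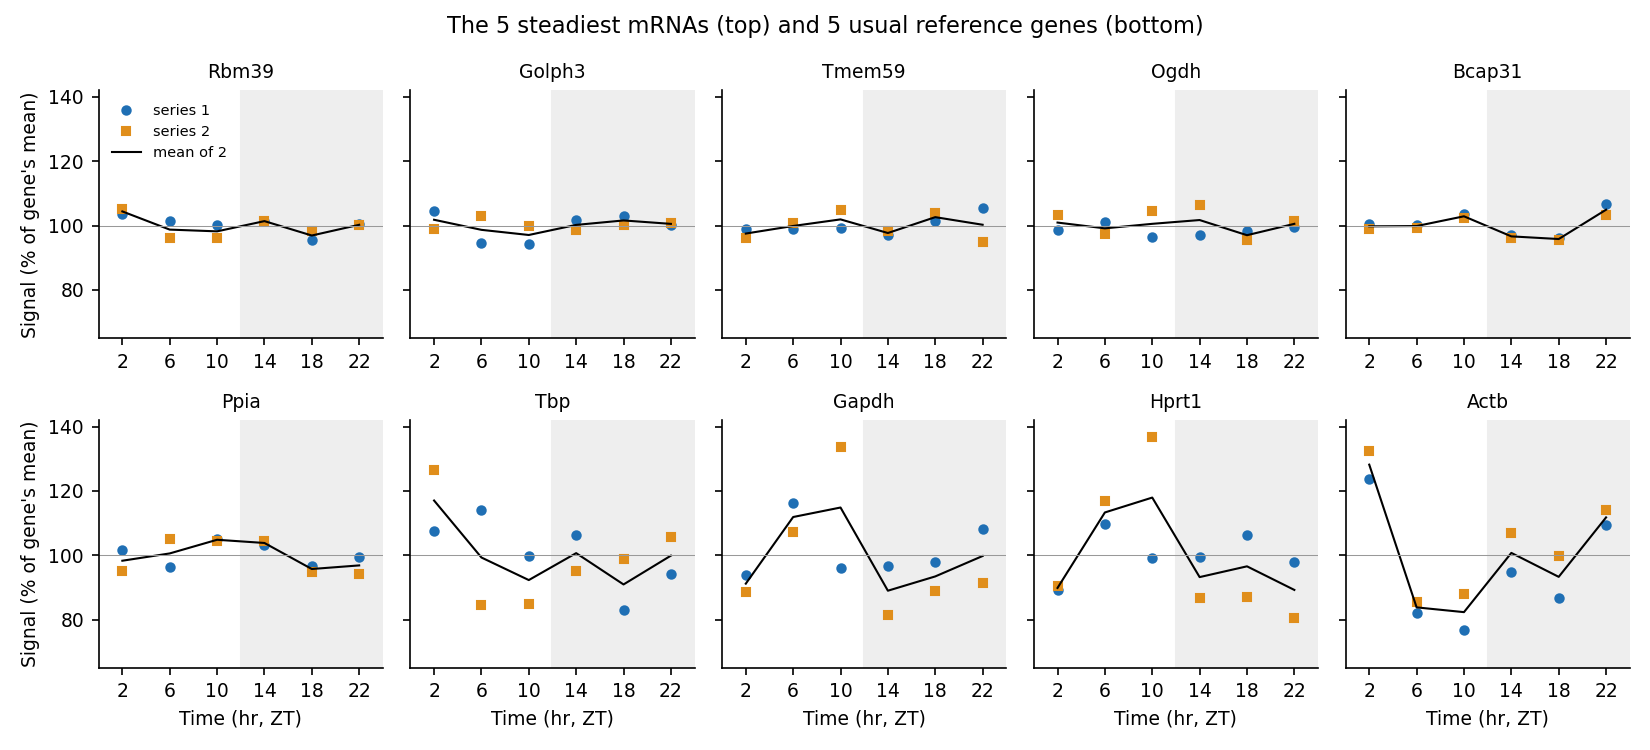
Signal in each sample as a percentage of the gene's own mean over 12 samples, against time (hr, ZT), for the 5 steadiest mRNAs (top) and 5 usual reference genes (bottom); circles are series 1, squares series 2, the line joins the means of 2 samples, and grey marks darkness. The upper genes stay within a highest over lowest value of 1.1 to 1.12, as does *Ppia* at 1.12, while *Gapdh*, *Hprt1* and *Actb* reach 1.64, 1.70 and 1.73.

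A wider panel of 33 genes in use as references was measured too. Of these, 29 had all 12 values above 5 rpbp, and 2 were among the 200, *Ppia* and *Ipo8*, a nuclear import receptor (rank 147, 6.05 to 7.42 rpbp, 5.56%). Of the 29, 17 varied less than the median of the 4561 genes, and the median SD over mean was 10.8%. Those next in order were *Nono* (rank 305, 6.41%), the elongation factor *Eef1a1* (394, 6.81%), *Cyc1* of complex III (419, 6.89%) and *Atp5b* of the ATP synthase (448, 6.97%). Toward the other end were the cyclophilin *Ppib* (rank 3910, 22.8%), *Actg1* (3835, 21.9%) and *Tubb5* (3622, 19.6%). Of the 33, 4 genes, *Tfrc*, *Tbp* and *Polr2a* among them, had at least 1 value at or below 5 rpbp.

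Because the SD over mean made the choice, steadiness was measured again in samples that had no part in it. The 200 steadiest genes by the same rule in series 1 alone had a median SD over mean of 4.03% in those 6 samples. In the 6 samples of series 2 their median was 7.80%, against 12.4% for all genes, and 182 of the 200 lay below that. The 200 chosen in series 2 had a median of 4.28% there and of 6.91% in series 1, against 11.7% for all genes, and 183 of the 200 lay below it. The choice thus carried over in part: the genes were steadier than most in the other series too, but less so than where they were chosen. The 2 choices had 33 genes in common, 16.5% of each, and 88 and 108 of them were among the 200 chosen on all 12 samples. *Rbm39*, *Golph3*, *Tmem59*, *Ogdh*, *Bcap31*, *F2* and *Ywhae* were among the 33.

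**Figure D4:**
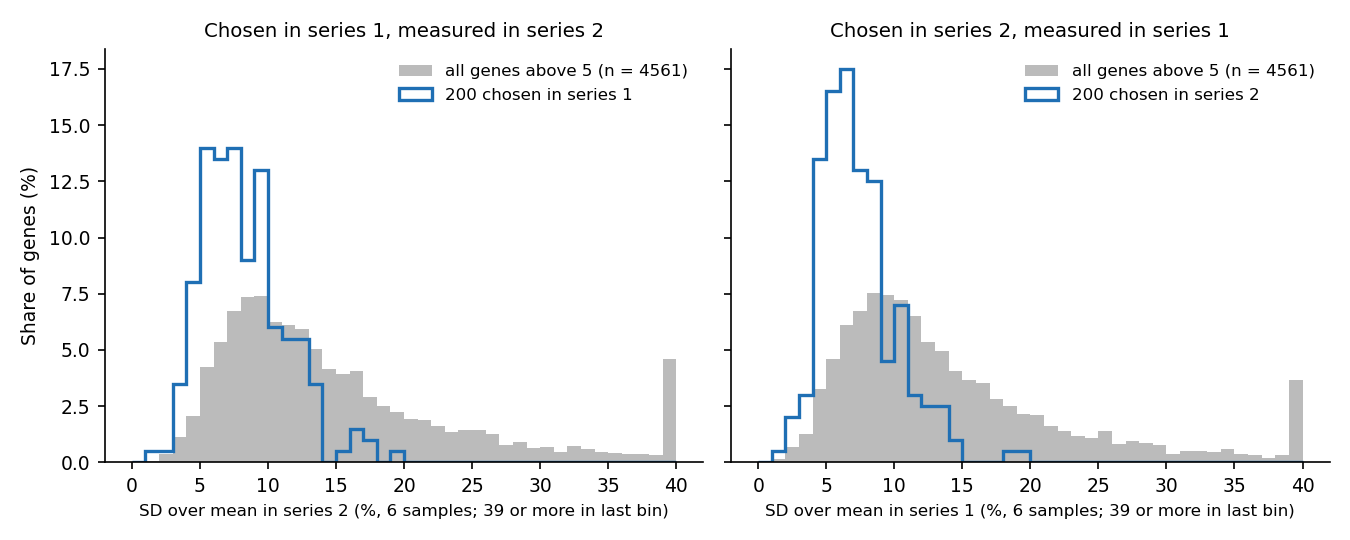
Share of genes (%) by SD over mean (%) in the 6 samples of 1 series, for all 4561 genes above 5 rpbp (grey) and for the 200 genes chosen in the other series (blue line). The blue distributions have medians of 7.80% and 6.91%, against 12.4% and 11.7% for all genes, and the last bin holds all values of 39% or more.

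A steady mRNA can still follow the time of day with a small amplitude. F24, the share of the variance of the 12 values that a 24 hr cosine takes up, was computed, and its p comes from 10000 random orders of the values. The p of a gene depends on the order of its values, which the choice of the 200 did not use. The share of rhythmic genes among the 200 is nevertheless not independent of the choice, since a gene with a large daily component has a large SD over mean and could not be chosen. Of the 200, 33 (16.5%) had a permutation p below 0.05, against 26.6% of the expressed genes and 29.3% of the 4561 genes. After adjustment over the 10198 expressed genes (Benjamini-Hochberg), 3 of the 200 (1.5%) remained, against 5.62% of the expressed genes and 6.42% of the 4561. When 1 sample was left out, the unadjusted count was 21 to 35 and the adjusted count 0 to 3. The adjusted count rose under some other alternatives, given below. The median F24 was 0.24 among the 200 and 0.34 among the 4561. With limma, which estimates the spread of a gene partly from that of all genes, 1 of the 200 had an unadjusted p below 0.05 for a 24 hr cosine and 0 an adjusted one, against 29.5% and 9.60% of the 4561 genes. Since limma draws the low spread by which these genes were chosen towards that of other genes, its count is low by construction.

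The 3 genes were *F2*, *Itgb1* and *Mfn1*. *F2* had its lowest values in the light, with 462 and 498 rpbp at ZT6 and 476 and 472 rpbp at ZT10. Its highest came in the dark, with 513 and 527 rpbp at ZT18 and 509 and 520 rpbp at ZT22. At ZT2 and ZT14 it stood between them, at 499 and 502 rpbp and at 501 and 510.3 rpbp. The fitted peak was at 19.7 hr (F24 0.76, permutation p = 0.0008, adjusted p = 0.028, n = 12), and the dark mean was 1.06 times the light mean. *Itgb1*, the beta 1 integrin that binds cells to matrix, was highest at ZT2 (38.9 and 40.4 rpbp) and lowest at ZT18 (33.9 and 33.8 rpbp). The remaining values lay between 34.4 and 37.99 rpbp, and the peak was at 2.85 hr (F24 0.80, permutation p = 0.001, adjusted p = 0.031). *Mfn1* was at 10.5 and 10.5 rpbp at ZT6 and at 9.61 and 8.99 rpbp at ZT22, with a peak at 7.28 hr (F24 0.77, permutation p = 0.0022, adjusted p = 0.043). In *Itgb1* both series were highest at ZT2 and lowest at ZT18. In *F2* both were highest at ZT18, with the lowest value at ZT6 in series 1 and at ZT10 in series 2, and in *Mfn1* both were highest at ZT6, with the lowest at ZT18 and ZT22. The 3 calls rest on few samples. When each of the 12 samples was left out in turn, *F2* had an adjusted permutation p below 0.05 in 3 cases (range 0.026 to 0.085), *Itgb1* in 2 (0.032 to 0.091) and *Mfn1* in 4 (0.035 to 0.101). None of the 3 did so without either sample of ZT2, or without the ZT10, ZT18 or ZT22 sample of series 1. With the last time point at 20 hr, as the file heads it, the adjusted permutation p was 0.038 for *F2*, 0.055 for *Itgb1* and 0.024 for *Mfn1*.

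The next highest F24 values were those of the deubiquitinases *Usp19* (F24 0.75, permutation p = 0.0035, adjusted p = 0.054) and *Usp33* (F24 0.68, permutation p = 0.011, adjusted p = 0.089). *Usp19* stood at 8.29 and 8.25 rpbp at ZT2 and at 7.71 and 8.29 rpbp at ZT22, with 7.02 to 7.79 rpbp at other times, while *Usp33* was highest at ZT14 and ZT18. Of the 29 reference genes, 6 had a permutation p below 0.05 and 0 an adjusted one. By permutation p they were *Ppia* (p = 0.042), *Atp5b* (p = 0.021), *Ywhaz* (p = 0.024), *Gusb* (p = 0.011), *Hsp90ab1* (p = 0.011) and *Tubb5* (p = 0.0065). *Actb* had an F24 of 0.50 with a permutation p of 0.052, *Hprt1* one of 0.40 (p = 0.086), *Gapdh* one of 0.25 (p = 0.27) and *Tbp* one of 0.21 (p = 0.34).

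**Figure D5:**
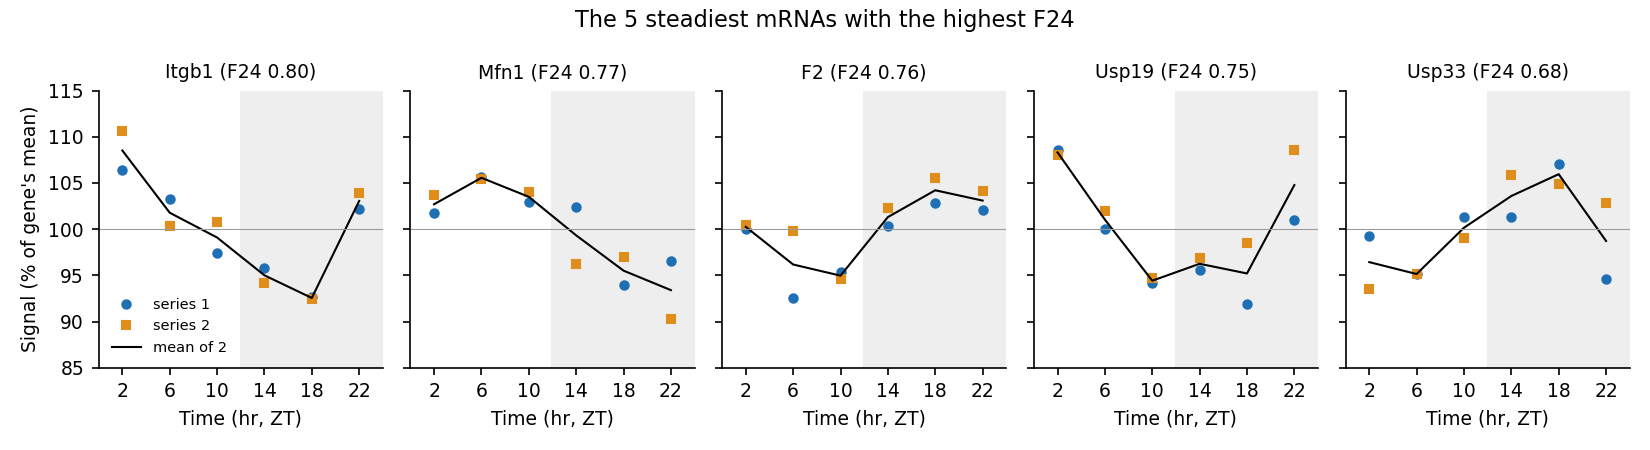
Signal in each sample as a percentage of the gene's own mean against time (hr, ZT) for the 5 of the 200 steadiest mRNAs with the highest F24; circles are series 1, squares series 2, the line joins the means of 2 samples, and grey marks darkness. *Itgb1* falls from 38.9 and 40.4 rpbp at ZT2 to 33.9 and 33.8 rpbp at ZT18, and *F2* is highest at ZT18.

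Among the 33 genes with a permutation p below 0.05, the fitted peak fell between 0 and 12 hr in 28 and between 12 and 24 hr in 5. Early peaks were also in the majority among the 1335 of the 4561 genes with such a p, of which 18.8%, 14.2% and 27.9% peaked at 0 to 4, 4 to 8 and 8 to 12 hr. The means of 67 of the 200 were lowest at ZT18, a time at which 19.4% of the 4561 genes were lowest. At ZT10, 41 of the 200 were highest, and so were 18.9% of the 4561. Small shifts of whole samples are of the same size as these differences. The median of the 4561 genes, relative to the mean of each gene, was 97.3% and 96.3% in the 2 samples of ZT18 and reached 103.0% in the ZT6 sample of series 2. With size factors by the median of ratios, 33 genes instead of 67 were lowest at ZT18 and 51 at ZT6. Scaling by the 75th percentile gave 27 and 52, and scaling by the total signal 52 and 35. With the median of ratios, 30 of the 200 had a permutation p below 0.05, with peaks in the first 12 hr in 13 and in the last 12 hr in 17, and 20 of the 33 genes were among these 30. The 75th percentile gave 30 genes, 12 and 18, and the total signal 23 genes, 12 and 11. Of the 4561 genes, 29.2%, 29.3% and 28.3% had such a p with these 3 scalings. The times of day at which the steadiest mRNAs peak therefore changed with the scaling, whereas *F2* and *Itgb1* kept an adjusted p below 0.05 with all 3 other scalings (0.040 to 0.048 for *F2*, 0.043 to 0.048 for *Itgb1*). *Mfn1* did not (0.090 to 0.15).

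The steadiest mRNAs did not come from one part of the genome. A GENCODE gene model (mm9) was matched to 188 of the 200 (94.0%) and to 89.9% of the 4561 genes, and all 188 were protein-coding, on 20 chromosomes. Chromosome X held 10 of the 188 (5.32%), against 2.58% of the matched genes. The median exon length of the 188, with the exons of all isoforms merged, was 3429 bases, against 3114 for all matched genes. In 4 groups by exon length, 3.21% of the group with the shortest exons, up to 1975 bases, and 6.45% of that with the longest were among the 200. The product of mean signal and exon length stands for the amount of sequence behind a gene. In 4 groups by this product, 1.36% of the lowest group were among the 200, and 3.80%, 7.32% and 5.85% of the next ones, so that genes with little sequence were seldom included. The part of the counting error in this was not tested.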

How the data were processed

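Liver mRNA was measured by RNA-Seq in 12 samples. The authors mapped the sequences to mm9 with TopHat, after base calling with CASAVA 1.8, and kept those with a unique place. The deposited signal is the coverage that the authors summed over the merged exons of a gene without regard to strand, divided by exon length and scaled to 10000000 uniquely mapped sequences. It is not a count, so tests for counts were not used. The authors' own rhythm scores, phases and p-values in the table were not used. The last time point is headed ZT20 in the file and ZT22 in the labels, and was taken as ZT22. No value column was left without a sample (0).

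The 200 genes were chosen as stated, by SD (n − 1) over mean. The members, gene lists and tests were chosen with earlier results of these data known. Genes named are the 20 steadiest, the 5 with the highest and the 5 with the lowest mean, the 5 with the highest F24, 3 on each side of the threshold, the reference panel, and up to 4 genes of each list with at least 3 members. *Ppia*, *Atp5b* and other panel genes fall under the panel. Other genes named as the only 1 or 2 of their list, and *Tufm* and *Masp2*, were named after their values were seen. F24 used 10000 permutations (seed 1, smallest p 0.0001) of each expressed gene and was tested on simulated data. limma 3.58.1 (R 4.3.3) fitted log2(signal + 1). Python 3.11.15, numpy 2.4.6 and pandas 2.3.3 were used. Alternatives were other scalings, measures of spread, minimums, single series, left-out samples and a replicate block. Of the 200 symbols, 2 read as numbers and are not named. Nascent RNA was not analysed here. A few genes that the rule selects are not reported here by name.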

Additional observations from a re-analysis of the deposited data

How the results depend on the processing

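The choice of the 200 depended most on the measure of spread and the number of samples. With other scalings 152 to 171 of the 200 were kept, with the SD of log2 values 176 (pseudocount 1) and 192 (pseudocount 0.1), with a minimum of 2 or 10 rpbp 182 and 158, and without any 1 sample 160 to 178. With the median absolute deviation over the median 89 were kept, with series 1 alone 88 and with series 2 alone 108. Of the 200, 49 were kept under all 21 alternatives other than the single series, and 18 of the first 20 were among these. The panel gave 1 gene in place of 2 with a minimum of 10 rpbp and in either series alone, and 1 to 3 without any 1 sample. In place of the SD over mean, the median absolute deviation over the median of *Ppia* was 6.10%, at rank 501, and the SD of log2(signal + 1) of *Tbp*, as a percentage on the natural log scale, was 9.22%. Without any 1 sample the SD over mean was 15.4% to 18.4% for *Actb*, 10.5% to 14.99% for *Gapdh*, 11.5% to 16.4% for *Hprt1*, 4.19% to 4.61% for *Ppia* and 10.6% to 13.6% for *Tbp*. The replicate numbers were not treated as pairs in the main results. The deviations of same-numbered samples correlated at −0.29 to 0.26 (median 0.028) over 15 pairs of time points, with 3 above 0.1. Whether the samples of a series share a component was not tested. With a replicate block 176 of the 200 were kept, and F24 after the block gave 38 genes with a permutation p below 0.05 and 6 adjusted, against 32.1% and 9.60% of the 4561 genes. The number with a permutation p below 0.05 was 33, and 21 to 35 without any 1 sample, with 21 when the ZT18 sample of series 2 was left out. In limma it was 1 with the cosine, 1 with the cosine and the replicate block, and 0 with 6 time points, and the adjusted number was 0, 0 and 0. The adjusted number was 3, and it was 0 to 3 without any 1 sample, 1 with no minimum, and 5 both with a minimum of 4 rpbp and with the 4561 genes alone. It was 0 without either sample of ZT2 or the ZT10 sample of series 1, and the cause was not tested. Only functional lists with at least 3 genes among the 200 were counted under alternatives, so the lists with fewer, including those with 0, were not. Of these counts, 357 stayed within 1.5-fold and 57 did not. Without any 1 sample the list of the respiratory chain ranged from 3 to 8. That of transport between the endoplasmic reticulum and the Golgi ranged from 2 to 9, and that of the proteasome from 1 to 5. Those of the lysosome and of mitochondrial import ranged from 2 to 4, and that of phosphatases from 1 to 3. The part of counting error in the spread was not tested.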

Other observations

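Several steady mRNAs outside the lists encode receptors, enzymes and a transcription factor, and these were named after their values were seen. *Gcgr*, the glucagon receptor, had an SD over mean of 5.02%, *Adipor1*, an adiponectin receptor, 5.34%, and *Hpn*, the membrane protease hepsin, 4.99%. *Urod*, an enzyme of heme synthesis, lay between 29.3 and 34.4 rpbp (4.69%), and *Shmt2*, a mitochondrial enzyme of one-carbon metabolism, between 41.2 and 49.9 rpbp (5.50%). *Yy1*, a zinc finger transcription factor, had an SD over mean of 5.39%, and *Alkbh5*, an RNA demethylase, 4.76%.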
